A study of Homo sapiens with 8 samples.

Results

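The late AML1-ETO only regions were stretches of the genome at which AML1-ETO gave a ChIP-seq peak past a set strength after 48 h of induction. None of the other 3 peak lists of the series had a peak there. The regions were chosen by measured values. A peak of the AML1-ETO 48 h list on chromosomes 1 to 22 was a member when its −log10 q, the strength that the peak caller assigns, was at least 10, its width was under 8000 bp, and it shared no base with a peak of AML1-ETO at 12 h, ETO2-GLIS2 at 12 h or ETO2-GLIS2 at 48 h. By this rule 1520 of the 104677 peaks of the AML1-ETO 48 h list were members (1.45%), out of 232543 peaks in the 4 lists together.

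The cells were U937, a human monocytic line derived from a histiocytic lymphoma, made into stable single-clone lines with a retroviral Tet3G vector that drives the fusion protein in the presence of doxycycline. Clone #4 expressed AML1-ETO (AE) and clone #14 expressed ETO2-GLIS2 (EG), each over-expressed with an HA tag at its N-terminus and induced by 5 µg/ml of doxycycline over 12 or 48 h. The 48 h AML1-ETO list, in which the members lie, was compared with the 12 h list of the same clone and with both lists of the ETO2-GLIS2 clone. An anti-HA precipitate and an input were sequenced once per condition, 4 ChIP and 4 input libraries in all, and the treatment label names 48 h for every library while the titles give 12 or 48 h, which were used here. With 1 library per condition no difference between time points or fusion proteins has a replicate check, and a peak that is new at 48 h cannot be told apart from one that a deeper or cleaner library made visible. By the study's read statistics the AML1-ETO 48 h precipitate had the most mapped reads of the 4 and the ETO2-GLIS2 48 h precipitate the fewest, so the absence of an ETO2-GLIS2 peak cannot be told apart from shallower sequencing either. Intervals given below are 95% intervals over regions and cover counting error only.

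AML1-ETO arises from the translocation between chromosomes 8 and 21 in acute myeloid leukaemia and joins the DNA-binding Runt domain of RUNX1 to nearly all of RUNX1T1 (ETO), which recruits corepressors. RUNX proteins read TGTGGT and, less often, TGCGGT. In myeloid chromatin they often sit beside PU.1, C/EBP and AP-1 factors, and the ETO moiety also contacts E proteins such as TCF3 and TCF12, which read E-boxes. ETO2-GLIS2 carries a related ETO-family moiety (CBFA2T3) but the zinc fingers of GLIS2 in place of a Runt domain.

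The sequence at the summit, the point of highest signal in a peak, is printed for members chosen by fold and by motif. In windows of 100 bp, 20.2% of late summits had a Runt match, so the first group is not typical of the set. Below are 50 bp to either side of the summit for 5 of the 6 late regions with the highest fold enrichment that had a Runt match in this stretch, read on the plus strand of GRCh37 with the Runt letters TGTGGT or TGCGGT, on either strand, in capitals.
OSBPL2, chr20:60827549-60827649: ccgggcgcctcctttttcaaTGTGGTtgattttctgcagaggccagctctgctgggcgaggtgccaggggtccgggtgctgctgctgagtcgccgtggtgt
ASNSD1, chr2:190525944-190526044: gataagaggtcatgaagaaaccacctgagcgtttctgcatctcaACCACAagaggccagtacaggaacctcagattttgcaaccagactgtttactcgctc
SNX33, chr15:75965624-75965724: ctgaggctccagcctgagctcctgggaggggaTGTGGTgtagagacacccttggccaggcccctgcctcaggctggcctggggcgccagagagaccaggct
ELL, chr19:18572771-18572871: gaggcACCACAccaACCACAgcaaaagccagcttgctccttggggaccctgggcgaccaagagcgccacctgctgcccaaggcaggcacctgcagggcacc
AHCYL1, chr1:110496890-110496990: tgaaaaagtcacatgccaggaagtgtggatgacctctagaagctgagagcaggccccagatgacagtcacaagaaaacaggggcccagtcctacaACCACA

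These names are the protein-coding genes with the nearest start and do not assign a target. The regions named for OSBPL2, an oxysterol-binding protein, and ELL, a transcription elongation factor, lay in introns. The ASNSD1 region was a promoter, 117 bp from the start. Those named for SNX33, a sorting nexin, and AHCYL1 were intergenic.

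The pair of late regions with the highest fold among those with no Runt match in the same stretch are printed for contrast. Within these 50 bp they hold no AP-1 or CAGCTG match either, so they have no capitals. The wider window of 200 bp at NIPSNAP2 holds 1 AP-1 match and is counted with the AP-1 summits further on.
CHD5, chr1:6220138-6220238: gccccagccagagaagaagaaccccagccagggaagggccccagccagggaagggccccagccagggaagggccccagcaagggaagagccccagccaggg
NIPSNAP2, chr7:56074967-56075067: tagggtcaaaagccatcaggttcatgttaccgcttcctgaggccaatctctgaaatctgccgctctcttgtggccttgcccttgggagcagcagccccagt

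The stretch in an intron of CHD5, a chromodomain helicase, consists of short tandem copies, and 74.0% of the 169 words of 32 letters in the 200 bp around its summit occur at more than 1 place in GRCh37. In the intergenic NIPSNAP2 region none do. Over all members, 147 of 1520 summit windows (9.67%, 8.23 to 11.3) were made up to at least 50% of repeated words. The share was 9.41% (8.71 to 10.1) in the persistent AML1-ETO only regions described below, a difference of 0.259 percentage points (−1.31 to 1.99).

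Runt and AP-1 letters stood together in 45 of 1520 summit windows of 200 bp. The 3 with the highest fold among those with both inside 50 bp of the summit are printed next, with the Runt letters and the AP-1 letters TGACTCA or TGAGTCA in capitals. They were chosen after their values were seen.
SSUH2, chr3:8671243-8671343: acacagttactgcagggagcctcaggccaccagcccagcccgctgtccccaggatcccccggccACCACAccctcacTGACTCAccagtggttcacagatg
RAB12, chr18:8615508-8615608: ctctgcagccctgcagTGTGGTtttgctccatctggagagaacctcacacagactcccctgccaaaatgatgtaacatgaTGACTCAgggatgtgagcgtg
FRY, chr13:32556832-32556932: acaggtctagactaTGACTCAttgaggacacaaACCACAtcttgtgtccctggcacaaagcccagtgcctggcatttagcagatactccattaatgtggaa

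All 3 lay in introns. Their folds were 10.05 at SSUH2, 10.04 at RAB12, which encodes a small GTPase, and 8.53 at FRY.

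Strength and width chose the members, so they are given as a description only. Fold enrichment, the ratio of ChIP signal to local background at the summit, had a median of 6.26 (quartiles 5.77 and 7.03, highest 20.3). The median −log10 q was 12.3, with 619 regions between 10 and 12, 531 between 12 and 16, 281 between 16 and 25 and 89 at 25 or more. New peaks just outside the limit had values of 9.97, 9.97 and 9.98, and those just inside had 10.0, 10.02 and 10.04. The width limit removed no region. The median width was 687.5 bp and the widest members measured 3228, 3307 and 3969 bp.

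Most late regions were thus modest peaks. The strongest had rank 5875 in the AML1-ETO 48 h list by −log10 q. Many carried the same values. The 1520 regions had 379 distinct pairs of fold and −log10 q, and the 5 commonest pairs covered 625 of them (41.1%). The commonest pair, a fold of 5.77 with a −log10 q of 10.5, was shared by 217 regions. Steps between these 5 pairs averaged 0.251 in fold and 0.907 in −log10 q.

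How much of the list was new at 48 h depended on the strength that was asked for. Without any limit, 62411 of the 104677 peaks (59.6%) overlapped no peak of the other 3 lists. The share was 76.3% of peaks with a −log10 q under 10, 19.02% between 10 and 16, 6.47% between 16 and 25 and 0.616% at 25 or more. Of the 24167 peaks within the limits of strength and width, 2093 overlapped no AML1-ETO peak at 12 h. Leaving out those with an ETO2-GLIS2 peak at 48 h left 1677, and leaving out those with one at 12 h left the 1520 late regions.

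The comparison used 3 other sets of AML1-ETO 48 h peaks. Persistent AML1-ETO only regions (6534) passed the same limits and overlapped a 12 h AML1-ETO peak but none of ETO2-GLIS2. Shared regions (13791) passed the limits and overlapped an ETO2-GLIS2 peak at 48 h. Weak new regions (60891) were as new as the late ones but had a −log10 q under 10. The sets differed in strength, with a median fold of 6.26 in late, 7.53 in persistent, 14.6 in shared and 3.26 in weak new regions. Comparisons with persistent regions are therefore also given among peaks with a −log10 q from 10 to 16, which held 1150 of the late regions.

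Late regions lay mostly away from gene starts. By the position of the summit, 327 of 1520 (21.5%, 19.5 to 23.7) were at a promoter, within 1 kb of an annotated transcription start. A further 93 (6.12%) were in exons, 699 (46.0%, 43.5 to 48.5) in introns and 401 (26.4%, 24.2 to 28.7) between genes. The median distance to the nearest start was 4525 bp (4041 to 5080). In this they resembled persistent more than shared regions, of which 57.0% were at promoters with a median distance of 441 bp. The difference in promoter share was −35.5 percentage points against shared regions (−37.7 to −33.2). Against persistent regions it was −2.88 (−5.14 to −0.512), and it was 0.259 (−2.49 to 3.12) among peaks with a −log10 q from 10 to 16. The share in exons was higher in late than in persistent regions by 2.2005 percentage points (0.995 to 3.59) and by 1.95 (0.459 to 3.64) within that range. Weak new regions were at promoters less often than late ones, with a difference of 6.496 percentage points (4.48 to 8.65).

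**Figure D1:**
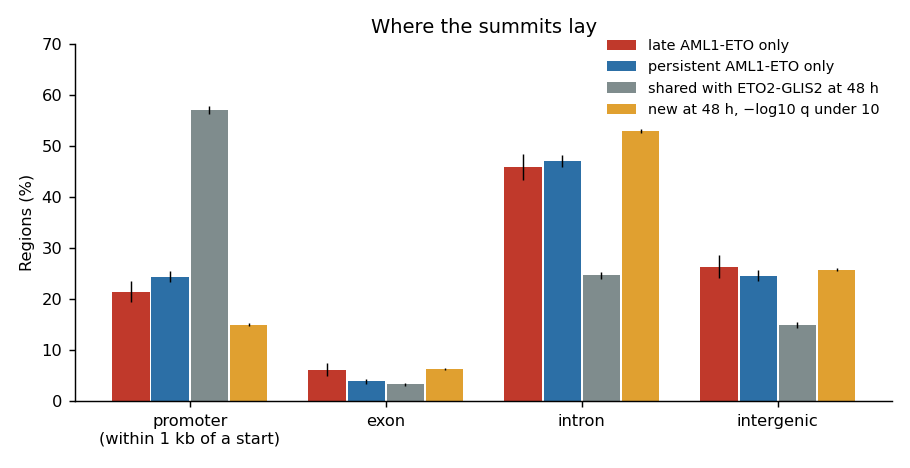
Share of regions in percent by the position of the summit, for 4 sets of AML1-ETO 48 h peaks. Bars show the share and lines its 95% Clopper-Pearson interval. Late regions (red) were at promoters in 21.5% of cases, close to persistent regions (blue, 24.4%) and far below shared regions (grey, 57.0%).

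The 3 promoter regions with the highest fold were those of ASNSD1 (fold 14.0), PLK5, a Polo-like kinase family member (fold 13.55), and XXYLT1, a xylosyltransferase (fold 12.55). An ETO2-GLIS2 48 h peak lay 254 bp from the PLK5 region. Among exonic regions they were chr2:128154856-128156262 in MAP3K2-DT near MAP3K2, a MAP kinase kinase kinase (fold 15.1), chr7:150743474-150747442 in ABCB8 and 1199 bp from the start of ASIC3 (fold 13.4), and chr6:109103437-109103774 in the pseudogene ZPR1P1 (fold 12.8). Introns held the strongest region of all, chr1:6219625-6220688 in CHD5, with a fold of 20.3 and a −log10 q of 80.5. Introns also held the region near TLL2, a tolloid-like metalloprotease (fold 16.1), where 59.2% of the 32-letter words around the summit occur at more than 1 place in GRCh37. The OSBPL2 region (fold 15.6), also intronic, had an ETO2-GLIS2 12 h peak 301 bp away. Between genes the highest folds were at chr7:56074000-56077306, 25553 bp from the start of NIPSNAP2 (fold 16.1), chr15:75964892-75966678 near SNX33 (fold 13.3) and chr17:41801098-41802114, 34604 bp from the start of SOST, which encodes sclerostin (fold 13.0). The 10 highest folds were completed by intronic regions in TPGS1 (fold 15.1) and ISCU, the scaffold of iron-sulphur cluster assembly (fold 14.6).

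The summit sequence was compared with the letters 1 kb to either side of the same summits and with all 13422598 non-overlapping 200 bp windows of chromosomes 1 to 22, the latter also weighted to the GC content of the regions. Matches were counted on both strands in 200 bp windows. Median GC content at late summits was 53.0% (52.5 to 53.5), against 47.5% in their flanks. It was 51% at persistent, 63.0% at shared and 49.5% at weak new summits.

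Runt letters (TGTGGT or TGCGGT) were found at 476 of 1520 late summits (31.3%, 29.0 to 33.7). In the flanks the share was 16.2% (14.9 to 17.6), in all windows of the genome 15.2% and in windows of the same GC content 18.3%. Over all peaks of the AML1-ETO 48 h list it was 24.8%. The form TGTGGT was found at 26.3% of late summits and TGCGGT at 5.86%, against 13.8% and 2.73% in the flanks. The longer form, TGTGGT extended by TT or TA, was found at 6.51% against 1.58%.

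Runt letters were nevertheless less frequent than at persistent regions. These had a match at 41.2% of summits (40.02 to 42.4), a difference of −9.90 percentage points (−12.48 to −7.25). Among peaks with a −log10 q from 10 to 16 the difference was −6.03 (−9.21 to −2.77). At least 2 Runt matches were found at 83 late summits (5.46%, 4.37 to 6.72) and at 9.75% (9.04 to 10.5) of persistent summits. Shared regions had Runt letters at 31.4% of summits, and late minus shared was −0.0883 percentage points (−2.50 to 2.41). The separate forms went opposite ways. Late minus shared was 4.81 (2.55 to 7.18) for TGTGGT and −5.78 (−6.98 to −4.38) for TGCGGT. Windows of the same GC content had Runt letters at 18.3% for late and 15.1% for shared regions. Weak new regions had them at 20.9% (20.5 to 21.2), nearer to their flanks at 17.6%.

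AP-1 letters, which FOS and JUN family dimers read, were found at 147 late summits (9.67%, 8.23 to 11.3). The flanks had 3.55% (2.93 to 4.28), windows of the same GC content 3.09% and all peaks of the 48 h list 4.72%. Persistent regions had 8.31% (7.66 to 9.01), and the difference of 1.36 percentage points had an interval that included 0 (−0.193 to 3.07). Shared regions had 5.84%, which was lower by 3.83 percentage points (2.39 to 5.47), and weak new regions 3.93%. Late summits with Runt letters had AP-1 letters in 45 of 476 cases (9.45%, 6.98 to 12.4) and those without in 102 of 1044 (9.77%, 8.04 to 11.7), with overlapping intervals.

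The palindromic E-box CAGCTG was found at 19.1% of late summits (17.2 to 21.2) and 9.28% of flanks. Windows of the same GC content had 13.3%, and windows of the GC content of persistent summits 12.0%. The share at late summits was higher than at persistent summits by 2.62 percentage points (0.513 to 4.86), without allowing for GC content. Among peaks with a −log10 q from 10 to 16 the difference was 2.31 with an interval that included 0 (−0.250 to 5.00). With the limit set at 5 it was −0.447 (−1.35 to 0.455). The E-box CAGGTG was found at 20.5% of late summits, 22.9% of flanks and 27.2% of windows of the same GC content, so unlike CAGCTG it was no commoner at the summit than around it. Against persistent summits, with 15.1% and 25.2% in windows of their GC content, it went the same way as CAGCTG. The difference was 5.43 percentage points (3.28 to 7.70), and 4.14 (1.45 to 6.94) in the range from 10 to 16.

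C/EBP letters (ttgcnnaa, n being any base) were found at 10.9% of late summits (9.34 to 12.53), against 8.62% of flanks, 6.07% of windows of the same GC content and 14.8% of persistent summits. In all windows of the genome, without weighting to GC content, the share was 10.7%. The difference from persistent regions was −3.98 percentage points (−5.69 to −2.12) and −3.28 (−5.43 to −0.986) in the range from 10 to 16. The PU.1 letters gaggaagt were found at 3.49% of late summits, 1.15% of flanks and 1.14% of windows of the same GC content, and the difference from persistent regions was −0.601 (−1.56 to 0.539). The strict ETS letters ccggaagt were found at 4 late summits (0.263%, 0.0717 to 0.672), 0.165% of flanks and 0.234% of windows of the same GC content. Persistent summits had 0.827%. In the range from 10 to 16 the difference from persistent regions was −0.285 with an interval that included 0 (−0.650 to 0.213). The bare core GGAA was found at 86.2% of late summits, 81.1% of flanks and 79.9% of windows of the same GC content.

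The remaining letters are given against the same backgrounds. The CTCF core ccannaggg was found at 6.71% of late summits (5.50 to 8.09), 3.79% of flanks and 5.54% of windows of the same GC content. The GC box GGGCGG was found at 10.2% of late summits, above the flanks at 6.62% by 3.58 percentage points (1.88 to 5.40), while windows of the same GC content had 10.8%. MYB letters (CAACTG) were found at 8.29%, against 7.93% in the flanks and 7.50% in windows of the same GC content. GATA letters (AGATAA) were found at 6.51% of summits and 9.61% of flanks, and at 6.12% of windows of the same GC content. GLIS letters (TGGGGGG) were found at 3.09%, against 3.85% in the flanks and 5.33% in windows of the same GC content. At 686 late summits (45.1%, 42.6 to 47.7) none of the Runt, AP-1, CAGCTG and C/EBP letters was found, against 38.8% (37.6 to 39.9) of persistent summits. Of these 16 patterns, the separate Runt forms are contained in the Runt pair and the strict ETS and PU.1 letters contain GGAA.

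**Figure D2:**
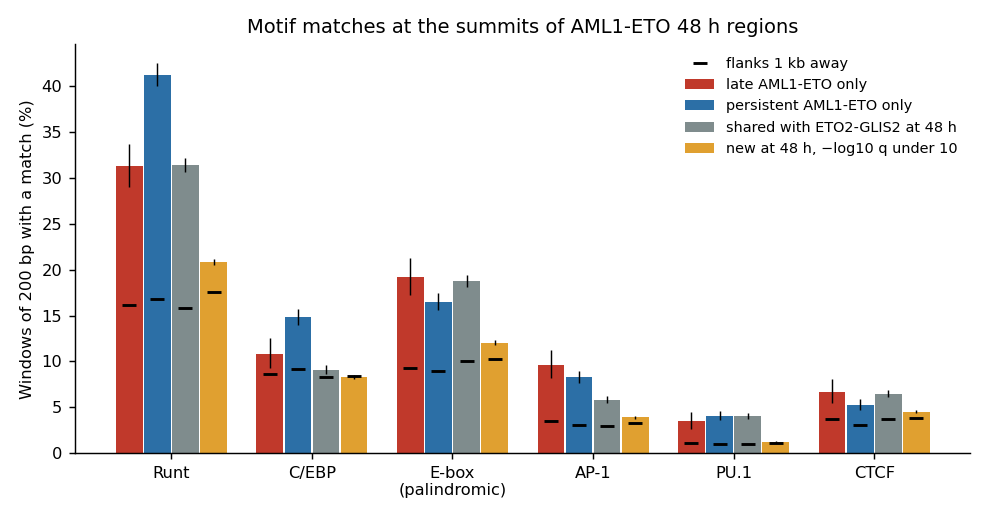
Share of 200 bp summit windows with a match in percent, for 6 patterns and 4 sets of AML1-ETO 48 h peaks, with 95% Clopper-Pearson intervals as lines. Black dashes mark the share in windows 1 kb to either side. Late regions (red) had Runt letters at 31.3% of summits against 16.2% in the flanks, and AP-1 letters at 9.67% against 3.55%.

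Runt, AP-1 and CAGCTG matches gathered at the summit itself, and C/EBP matches did so less. In bins of 20 bp, Runt letters were found in 5.79% of late regions from 0 to 20 bp from the summit. Bins within 40 bp of the summit averaged 4.92%, and bins beyond 300 bp averaged 1.90%, a ratio of 2.59. For persistent regions the ratio was 3.405 and for weak new regions 1.27. The AP-1 ratio was 3.11 at late, 2.81 at persistent and 1.21 at weak new regions, and that of CAGCTG 2.63, 2.29 and 1.29. For C/EBP letters the ratios were 1.61, 1.97 and 0.911 in the same order. Anywhere in the peak, a Runt match was found in 931 late regions (61.25%, 58.7 to 63.7) and AP-1 letters in 335 (22.04%). These shares were 79.6% and 29.02% in persistent regions, whose peaks were wider (median 1236 bp).

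**Figure D3:**
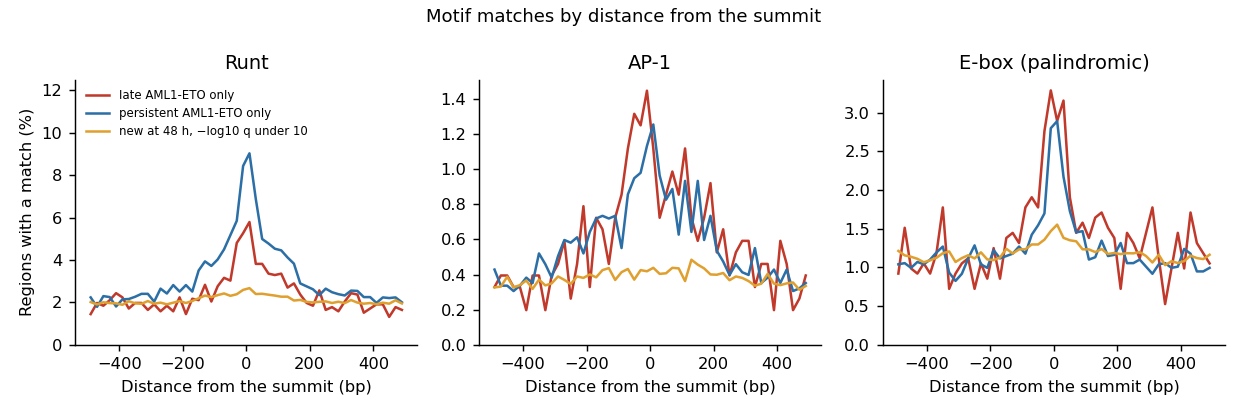
Share of regions in percent with a match in each 20 bp bin, by distance in bp from the summit, for late (red), persistent (blue) and weak new regions (yellow). The Runt curve of late regions has its highest bin at 5.79% beside the summit, below that of persistent regions (9.03%), while the AP-1 and E-box curves of both sets have similar heights.

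The Runt and AP-1 shares were also read by the strength of the peak. Runt letters were found at 29.8% (27.2 to 32.6) of late summits with a −log10 q from 10 to 16, 36.3% (30.7 to 42.2) from 16 to 25 and 34.8% (25.04 to 45.7) at 25 or more. AP-1 letters were found at 8.70% (7.13 to 10.5), 11.7% (8.22 to 16.1) and 15.7% (8.88 to 24.98) of the same groups. Persistent regions had AP-1 shares of 7.58%, 8.45% and 9.09%. With the limit set at 20, 16.8% (11.8 to 22.8) of 191 late regions had AP-1 letters, and the difference from persistent regions of that strength was 8.08 percentage points (3.33 to 14.1). With the limit set at 5 the difference had the opposite sign, −0.967 (−1.57 to −0.359), so its direction turned with the limit. Both comparisons were chosen after the data were seen.

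**Figure D4:**
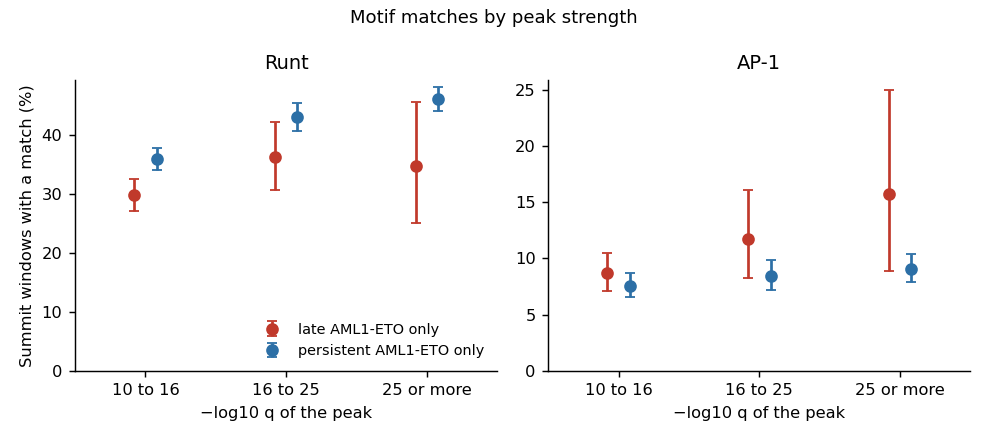
Share of 200 bp summit windows with Runt letters (left) and AP-1 letters (right) in percent, for late (red) and persistent regions (blue) in 3 ranges of −log10 q, with 95% Clopper-Pearson intervals. Runt shares of late regions lie below those of persistent regions and AP-1 shares above, with intervals that overlap except for Runt from 10 to 16.

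By place, Runt letters were found at 23.5% (19.1 to 28.5) of late promoters, 31.2% of exonic, 34.8% (31.2 to 38.4) of intronic and 31.7% of intergenic summits. Persistent regions had 33.0%, 41.8%, 44% and 43.96% in the same order. AP-1 letters were found at 7.34% of late promoters, 14.0% of exonic (7.66 to 22.7), 10.3% of intronic and 9.48% of intergenic summits.

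Late regions often had a 12 h AML1-ETO peak nearby, although the rule allowed none to overlap. The median gap to the nearest was 3674 bp (3166 to 4242, quartiles 843 and 12890 bp). Of the 1520, 94 had a gap of at most 200 bp, 334 a gap from 200 bp to 1 kb, 628 from 1 to 10 kb, 358 from 10 to 50 kb and 106 a longer one. Together 1056 (69.5%, 67.1 to 71.8) had a 12 h peak within 10 kb. Weak new regions had one more often, at 84.2% (83.9 to 84.5). An ETO2-GLIS2 peak lay within 10 kb of 49.4% of late regions at 48 h and of 48.03% at 12 h. Of the nearest 12 h AML1-ETO peaks within 10 kb, 73.3% (70.5 to 75.9) overlapped some 48 h peak, and 73.8% of all 12 h peaks did.

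**Figure D5:**
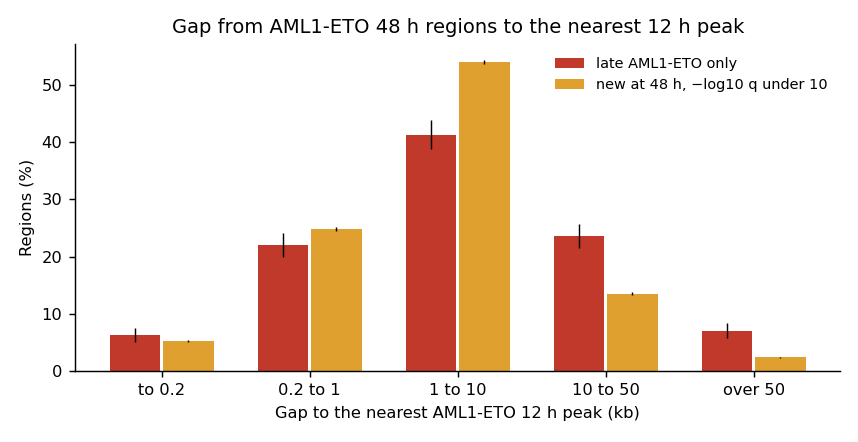
Share of regions in percent by the gap in kb to the nearest 12 h AML1-ETO peak, for late (red) and weak new regions (yellow), with 95% Clopper-Pearson intervals. Gaps of 1 to 10 kb were the commonest in both sets, and 23.6% of late regions had a gap of 10 to 50 kb against 13.5% of weak new ones.

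The distance to earlier binding went with the AP-1 letters. They were found at 6.78% (4.58 to 9.59) of the 428 late summits within 1 kb of a 12 h peak, 9.24% (7.09 to 11.8) of the 628 at 1 to 10 kb and 12.9% (10.01 to 16.3) of the 464 beyond 10 kb. The difference between the outer groups was 6.16 percentage points (2.24 to 10.1). For Runt letters it was 4.24 (−1.84 to 10.2), for CAGCTG 4.71 (−0.504 to 9.86) and for C/EBP letters 2.2015 (−2.05 to 6.41), each with an interval that included 0. The distance groups were not matched for peak strength, which went with both measures. With the limit on −log10 q at 5 and at 20, AP-1 shares were 5.66% and 16.8%. The shares within 10 kb of a 12 h peak were 84.3% and 56.0%. The part of strength in the AP-1 gradient was not tested.

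The neighbours of late regions within the 48 h list were counted, from sets of very different size. Another late region lay within 1 kb of 26 of them (1.71%) and within 10 kb of 108 (7.11%). Any other 48 h peak lay within 1 kb of 915 (60.2%, 57.7 to 62.7). A shared region lay within 10 kb of 614 (40.4%) and a persistent region within 10 kb of 291 (19.1%). An AML1-ETO peak of 8 kb or wider lay within 10 kb of 86 (5.66%). They were spread over every chromosome from 1 to 22. Of the peaks within the limits of strength and width, 6.29% were late regions, with the lowest share on chromosome 19 (5.11%, 3.98 to 6.45) and the highest on chromosome 18 (8.97%, 6.25 to 12.4), and both intervals included the overall share.

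A late region lay in, or up to 20 kb upstream of, 1353 of 19229 protein-coding genes (7.04%). Of these, 1233 genes had 1 late region, 99 had 2, 11 had 3 and 10 had 4. Genes with a late region had a median length of 50220 bp, against 27568 bp for all. The share with a late region was 3.95% among genes up to 9815 bp long and 11.1% among those of 71648 bp or more. Most of these genes already had an AML1-ETO peak at 12 h, 1248 of 1353 (92.2%, 90.7 to 93.6), against 74.2% of all protein-coding genes. Only 77 (5.69%, 4.52 to 7.06) had no peak of the other 3 lists in the gene or upstream, against 22.4% of all.

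The 10 protein-coding gene records with most late regions held 4 each and lay at 4 places. RUNX3 (ENSG00000020633, chr1:25226002-25291612), a close relative of RUNX1 that reads the same letters, had 3 in introns and 1 upstream. Their folds were 6.27, 5.77, 5.56 and 5.01, and 12 h AML1-ETO peaks lay 1104, 3110, 689 and 1735 bp away. ETO2-GLIS2 48 h peaks lay 323, 3252, 8886 and 1731 bp away in the same order. The 3 intronic regions had no Runt match in the 200 bp around their summits. The upstream one is printed with its Runt letters in capitals, because it carries a pair of overlapping TGTGGT.
RUNX3 upstream, chr1:25307269-25307369: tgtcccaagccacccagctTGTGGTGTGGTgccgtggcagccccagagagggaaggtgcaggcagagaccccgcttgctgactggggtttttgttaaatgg

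RUNX3 as a whole held 40 AML1-ETO peaks at 48 h, against 18 after 12 h, in lists of 104677 and 70063 peaks in all. The late regions were a small share of them. RUNX3 was named for these regions, which overlap no 12 h peak, so a higher 48 h count is partly built in. RXRA, the retinoid X receptor alpha (ENSG00000186350, chr9:137208944-137332431), had 4 intronic late regions with folds of 6.02, 6.52, 7.53 and 5.77. WDFY1 (ENSG00000085449), a phosphoinositide-binding adaptor, had 4 with folds of 6.77, 5.77, 5.70 and 5.77, all intronic. The same 4 lie in the overlapping record ENSG00000286239. The other 6 records, NOTCH2NLR, NOTCH2NLB, NOTCH2NLC, NOTCH2NLA, NBPF10 and ENSG00000286185, are placed by the lifted annotation on overlapping bases of chromosome 1, so they stand for 1 place with 4 late regions. From 50.3% to 90.5% of the 32-letter words at these 4 summits occur at more than 1 place in GRCh37, and these regions are uncertain.

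Gene lists of 7 kinds were looked up, against the 7.04% of all protein-coding genes. Among 20 genes of the RUNX and fusion complex list, 6 held a late region (30.0%), in a list whose median gene length was 86975 bp. Besides RUNX3 these were RUNX1, RUNX2, CBFA2T3, LMO2 and TCF3, with 1 each. RUNX1, the gene that gives AML1-ETO its DNA-binding part, held its late region in an intron (fold 5.39) among 151 AML1-ETO peaks at 48 h, and a 12 h peak lay 308 bp away. The RUNX2 region was intronic (fold 6.02), with an ETO2-GLIS2 12 h peak 480 bp away. That of CBFA2T3, the ETO2 gene, lay upstream (fold 5.77). LMO2, a bridging partner of TAL1 complexes, had an intronic region (fold 6.02). TCF3, which encodes an E protein, had a promoter region (fold 7.53) with a 12 h AML1-ETO peak 400 bp away and an ETO2-GLIS2 48 h peak 107 bp away.

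Of 19 myeloid transcription factor genes, with a median length of 7204 bp, MYB held a late region (5.26%). An AML1-ETO peak at 12 h was found at 19 of 19, against 74.2% of all protein-coding genes. The MYB region, chr6:135533434-135533911 in an intron, had a fold of 9.54 and a −log10 q of 25.4, and a 12 h peak lay 74 bp away. Of 20 myeloid effector and surface genes, CD14 and CSF1R were counted (10.0%). Both regions lay upstream and inside other genes, the CD14 one in an exon at NDUFA2 and TMCO6 (fold 6.42) and the CSF1R one in an intron of PDGFRB (fold 7.78).

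Among 22 lymphoid genes, LCK, a T-cell kinase, and IL2RA, the interleukin-2 receptor alpha chain, held late regions (9.09%). LCK had 2, an intronic one with a fold of 8.53 and an upstream one with a fold of 6.42, and no AML1-ETO peak at 12 h in the gene or upstream. ETO2-GLIS2 peaks were present there, 4 at 48 h and 1 at 12 h, the nearest 96 bp from the intronic region. The intronic region of IL2RA (fold 5.93) had 2 Runt matches at its summit. Late regions of RUNX1, RUNX2, CBFA2T3, LMO2, TCF3, MYB, CD14, CSF1R, LCK and SPRY2 had no Runt match at theirs. Of 19 signalling and feedback genes SPRY2, a receptor tyrosine kinase feedback inhibitor, was counted (5.26%), through a region 18971 bp upstream (fold 5.84).

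No late region was found at 17 megakaryocyte and erythroid genes or at 18 long neural adhesion and synapse genes. By an approximate limit, 3 divided by the number of genes, a count of 0 allows shares of up to 17.6% and 16.7%. Both are above the 7.04% of all genes. The neural list had a median gene length of 1484911 bp. An AML1-ETO peak at 12 h was found at 11 of its 18 genes, against 74.2% of all protein-coding genes.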

How the data were processed

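The series held 4 anti-HA ChIP libraries and 4 inputs of U937 clones. As the labels and methods describe, the authors aligned reads to hg19 with Bowtie2 2.2.9, used SAMtools 1.7 and called peaks with MACS2 2.1.1.20160309 against input. The caller's settings and the removal of duplicate reads are not given in the sources used here. The deposited lists give for each peak the fold enrichment, a linear ratio over local background, the −log10 of the q-value (at least 1.302), and in another deposited column the offset of the summit in bp. Both values grow with read depth, which the lists do not hold and which, by the study's read statistics, differed between libraries.

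Members and gene lists were chosen with earlier results of these data known, and the rule used the strength, width and overlaps of the peaks. Peaks overlapped when they shared 1 bp, which differed from bedtools 2.31.1 in 0 calls. Motif and repeated-word counts were tested on simulated data with 0 errors. GENCODE release 44 lifted to GRCh37 gave starts and genes, GRCh37 the sequences. Patterns were counted in 200 bp around the summit, and GC weighting used bins of 2%. Shares have Clopper-Pearson intervals (scipy 1.17.1), differences Newcombe intervals and medians order-statistic intervals, all at 95% and for counting error only. Because regions do not replicate a condition, no p-values are given.

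Named were the 10 highest folds, the 3 highest per location, the 10 protein-coding genes with most late regions and listed genes with a late region. Sequences outside chromosome 8 and untranslated regions were printed by fold, and 1 of them is not reported here. Alternatives were limits of 5 and 20 on −log10 q, gaps of 1 kb, the 12 h AML1-ETO list alone, other lists from a −log10 q of 2, no width limit, other windows, promoters and gene margins. Input libraries, the read-level data and chromosomes X and Y were not analysed here.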

Additional observations from a re-analysis of the deposited data

How the results depend on the processing

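Of 77 recomputed values, 34 kept their direction and stayed within the interval, side of 0 or 1.5-fold range set by the values reported above. With the limit on −log10 q at 5 there were 11687 regions, and the shares became 24.1% for Runt, 5.66% for AP-1 and 83.02% for GGAA letters, 16.4% at promoters, 84.3% within 10 kb of a 12 h AML1-ETO peak and 33.7% of protein-coding genes, with a median GC content of 50.5%. At 20 there were 191 regions, with 35.1% for Runt and 16.8% for AP-1 letters, 24.6% at promoters, 56.02% near a 12 h peak, 1.06% of genes and a median GC content of 56.5%. With no other peak within 1 kb (1023 regions), GGAA letters were at 88.1%, GC content was 54.0%, 56.6% lay near a 12 h peak and 4.74% of genes were counted. Against the 12 h AML1-ETO list alone (2093 regions), Runt letters were at 28.5% and 26.2% lay at promoters.

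Windows of 100 bp gave 20.2% for Runt, 5.07% for AP-1 and 65.5% for GGAA letters and a GC content of 56.0%, and windows of 400 bp gave 45.6%, 16.2%, 97.3% and 50.5%, as fewer or more letters were read. Promoters of 3 kb held 40%, and starts of protein-coding genes alone 14.9%. Within 5 kb of a 12 h peak lay 56.2%. A margin of 5 kb counted 5.40% of genes and the gene body alone 4.53%.

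The Runt and C/EBP differences from persistent regions kept their sign and an interval without 0 under all 7 alternatives run for each, all added after the data were seen. The AP-1 difference turned to −0.967 at a limit of 5 (−1.57 to −0.359), and its interval also excluded 0, with the opposite sign, at a limit of 20 (8.08) and with no other peak within 1 kb (2.36). The CAGCTG difference turned to −0.447 at 5, and its interval included 0 from 10 to 16 (2.31) and at 20 (1.86). The promoter difference turned to 0.259 from 10 to 16, and its interval included 0 at 20 (−4.33) and with no other peak within 1 kb (−1.42). The causes were not tested. No paired analysis was possible because each condition has 1 library.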

Other observations

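Genes with 3 late regions were looked at after the values had been seen. There were 11 such records. Their peak counts stand against 70063 AML1-ETO peaks in all after 12 h and 104677 after 48 h. By the rule a late region counts at 48 h and overlaps no 12 h peak. A higher count after 48 h is thus partly built into the choice of these genes. CHD5, which holds the strongest late region, had 7 AML1-ETO peaks after 12 h and 32 after 48 h. FOXP4, a forkhead repressor, had 5 and 23, and CHST11, a chondroitin sulphotransferase, had 46 and 58. CDC42 had 11 and 28, and the overlapping record ENSG00000289694, which holds the same 3 late regions, had 15 and 32. These records thus stand for 1 place. The set also held SSTR5, SNX10, CYRIB, LDLRAD4, SH3RF3 and LRMDA. Among the 77 genes with a late region and no peak of the other 3 lists, TMEM106C and CCDC125 held 2 late regions each and the other genes 1.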
